A study of Rattus norvegicus with 6 samples.

Results

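The axon guidance ligands and receptors are the semaphorins, plexins, neuropilins, Slits, Robo receptors, netrins, Unc5 receptors, Dcc, ephrins and Eph receptors. They were chosen by gene symbol alone, as every gene whose only symbol in the array annotation begins with Sema, Plxn, Slit, Robo, Ntn, Unc5, Efna, Efnb, Epha or Ephb, plus Nrp1, Nrp2 and Dcc, with the Slitrk genes left out. The rule found 59 genes on 98 probe sets, of 14218 genes with a symbol of their own on the array. They were measured in 3 whole-ovary samples treated with NT3 (recombinant human neurotrophin 3, 50 ng/ml) and 3 control samples with no factor added. All ovaries came from 4-day-old female Sprague-Dawley rats and were kept whole in organ culture on floating filters for 48 h, and each sample held 2 to 3 ovaries homogenised together. Signals are intensities of Affymetrix arrays on a linear scale, 1 value per probe set and array, and each gene is represented by its probe set with the highest mean log2 signal. Of the 59 genes, 39 passed a filter on low signal (a mean over all arrays of at least 41.3) and were tested for NT3 minus control with limma.

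These families are ligand and receptor systems that steer growing axons and are also known from blood vessels and epithelia. Semaphorins bind plexins, and most secreted class 3 semaphorins need a neuropilin as co-receptor. Slits bind Robo receptors, netrin 1 binds Dcc and Unc5 receptors, and ephrins on one cell bind Eph receptor tyrosine kinases on the next. NT3 is a neurotrophin, known in neurons as the ligand of the receptor TrkC. Slit and Robo genes are known from the sheep and human ovary, and ephrin A5 is known from the mouse ovary, where its loss impairs ovulation.

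No guidance gene passed the adjusted threshold of 0.05 between NT3 and control ovaries, as was the case for every probe set on the array (limma, 0 of 18625 or 0%, lowest adjusted p 1.00, with 1.29% at an unadjusted p under 0.05). At an unadjusted p under 0.05, 1 guidance gene, Sema4g, was lower in NT3 ovaries, beside 1.17% of the 10600 tested genes (124 genes) in either direction and 0.698% (74 genes) in that direction. It was also the 1 gene of the 39 tested whose 3 NT3 and 3 control values did not overlap, where 5.74% of tested genes (608) did not, 3.33% with NT3 below control. Those shares leave the guidance genes' counts at about the background. Sema4g also passed the filter through control, its higher group, alone, so neither count is support for a difference in it. The log2 fold changes of the 39 tested genes ran from -0.74 to 0.60, with 20 above 0 and 19 below 0 and a median of 0.010. Over all tested genes the median was -0.0075, with 47.4% above 0.

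The width of the intervals says how much could have been seen. Standard errors on the log2 scale had a median of 0.20 over the 39 guidance genes and 0.155 over all tested genes. The 95% interval lay within a 2-fold change in either direction for 33 of the 39, and within 1.5-fold for 23. A change of more than 2-fold thus lay outside the interval for 84.6% of the tested guidance genes, against 96.3% of all tested genes. Of the 39, 2 passed the filter through 1 group only, Sema4g through control and Robo1 through NT3, and for those a difference was built into passing. The RNA is from whole ovaries, so fewer cells of a type and less RNA per cell cannot be told apart.

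**Figure D1:**
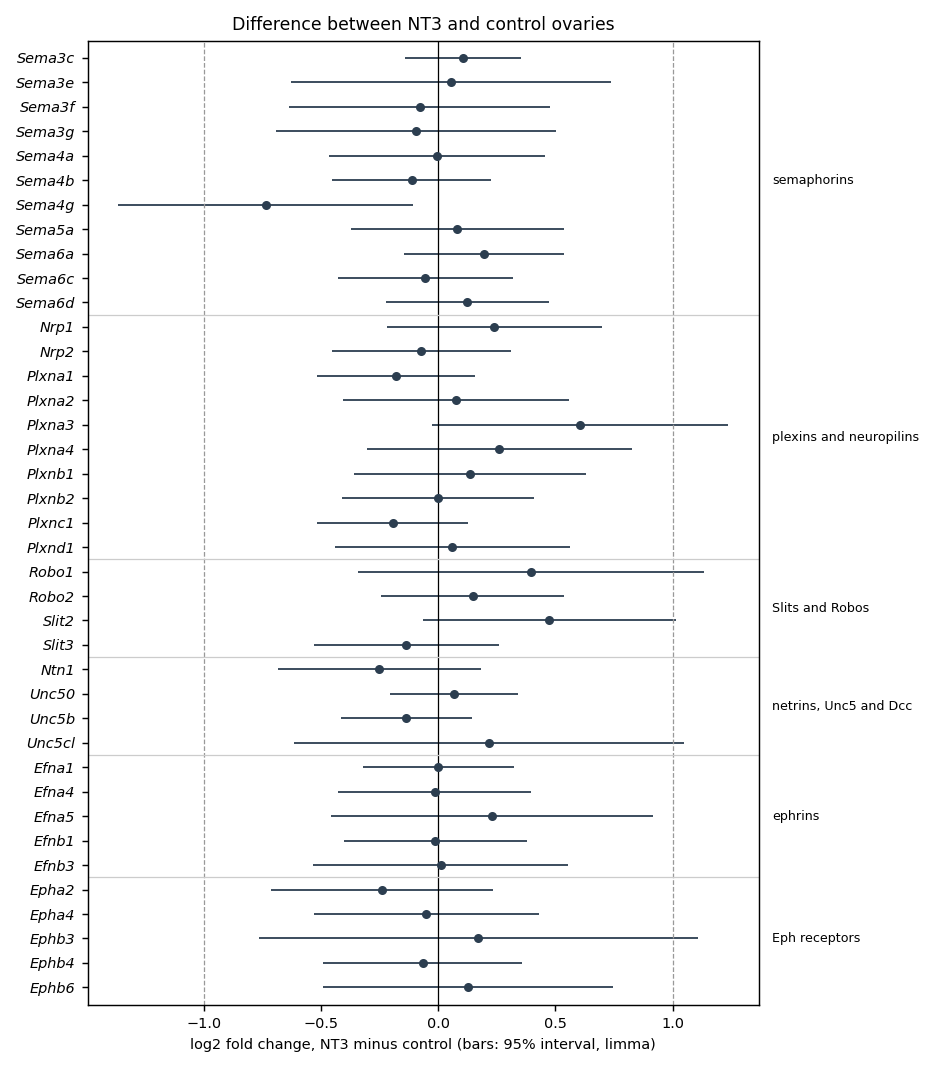
Log2 fold change (NT3 minus control, x axis) of the 39 tested guidance genes, grouped by family down the y axis, as points with 95% intervals from limma (n = 3 arrays per group). The interval of Sema4g lies wholly below 0, and the intervals of the other genes span 0.

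The promoters of these genes are shown because they bear on what the families share beyond their names. RefSeq windows of the GRCr8 assembly, from 250 bases before to 50 bases after a gene's start, were found for 45 of the 59 genes. The 3 printed here are Plxna3, the gene with the lowest p among those with an entry, and the tested genes with the most and the fewest CG dinucleotides, Plxnd1 and Sema3c. Capitals mark CG dinucleotides, which are dense in CpG island promoters.
Plxna3 promoter window, chrX:157266857-157267156, plus strand: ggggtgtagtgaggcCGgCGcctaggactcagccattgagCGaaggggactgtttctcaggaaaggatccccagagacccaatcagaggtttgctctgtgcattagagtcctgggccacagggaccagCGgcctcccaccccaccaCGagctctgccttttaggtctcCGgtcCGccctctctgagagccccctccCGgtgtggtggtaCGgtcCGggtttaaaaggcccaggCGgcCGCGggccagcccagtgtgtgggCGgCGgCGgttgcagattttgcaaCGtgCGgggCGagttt
Plxnd1 promoter window, chr4:150715138-150715437, minus strand: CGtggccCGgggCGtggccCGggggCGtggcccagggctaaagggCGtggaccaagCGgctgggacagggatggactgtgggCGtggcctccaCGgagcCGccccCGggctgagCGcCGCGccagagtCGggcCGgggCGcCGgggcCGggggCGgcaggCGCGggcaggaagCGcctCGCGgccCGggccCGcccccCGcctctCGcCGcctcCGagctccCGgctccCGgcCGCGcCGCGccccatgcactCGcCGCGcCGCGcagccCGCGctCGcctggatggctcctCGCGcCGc
Sema3c promoter window, chr4:18699578-18699877, minus strand: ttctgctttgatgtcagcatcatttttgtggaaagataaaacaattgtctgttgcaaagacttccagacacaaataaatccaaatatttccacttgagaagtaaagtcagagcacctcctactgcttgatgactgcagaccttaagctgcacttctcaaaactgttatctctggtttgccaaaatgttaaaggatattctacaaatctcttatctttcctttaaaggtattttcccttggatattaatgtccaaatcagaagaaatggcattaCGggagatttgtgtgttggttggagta
The Plxna3 window held 19 CG dinucleotides at 64.0% G and C. The Plxnd1 window held 48 at 83.0%, and the Sema3c window held 1 at 36.3%. The guidance genes therefore cover both CpG-dense and CpG-poor starts, with a median of 18 CG dinucleotides over the 45 windows, 21 over 8843 tested genes' windows and 7 over all 27457 windows. The letters TATAAA, searched on both strands, were in 0 of the 45 windows, 6.58% of tested genes' windows and 14.3% of all windows. The letters TGACG, the core of the CREB site, were in 8 (17.8%), 32.7% and 22.0% of the same sets, with either strand counted. The EGR site GCGGGGGCG was in 4 (8.89%), 5.39% and 2.78%, and the AP-1 site TGANTCA was in 1 (2.22%), 4.75% and 7.33%. A match is a run of letters and not a shown binding site.

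Among the semaphorins, 11 of 17 were tested, 5 with a log2 fold change above 0 and 6 below it (median -0.0051). Sema4g, a transmembrane class 4 semaphorin, had signals of 40.9, 31.7 and 35.1 in NT3 ovaries, against 43.6, 80.4 and 60.1 in control ovaries. All 3 NT3 values lay below the lowest control value, though control replicate 1 was close to NT3 replicate 1. The log2 fold change was -0.74 ± 0.28 (SE, n = 3 per group, limma, 95% interval -1.37 to -0.11, unadjusted p 0.0265, adjusted p 1.00). A fit blocked on replicate number gave an unadjusted p of 0.0382. The NT3 mean lay under the filter, so the signal there is close to the range of untested genes, and Sema4g had 1 probe set and no second measure. With each array left out in turn the log2 fold change ran from -0.96 to -0.52 and the unadjusted p from 0.00935 to 0.0921. That p was above 0.05 without control replicate 2 (0.0921), control replicate 3 (0.0638), NT3 replicate 2 (0.0782) or NT3 replicate 3 (0.06). Without both arrays numbered 2 the log2 fold change was -0.43 (unadjusted p 0.185).

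The semaphorins with the highest signals varied little between groups. Sema6d, a transmembrane ligand of plexin A1, had 1280.1, 1924.3 and 1676.4 in NT3 ovaries, against 1363.5, 1426.1 and 1645.5 in control ovaries (log2 fold change 0.12 ± 0.15, SE). Sema3c, a secreted class 3 ligand that acts through neuropilins, had 778.7, 837.8 and 769.0 in NT3 ovaries, against 820.5, 678.1 and 726.7 in control ovaries (0.10 ± 0.11). Both genes' groups overlapped, and the interval for Sema3c, -0.14 to 0.35, was among the narrowest of the list.

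Sema5a, a transmembrane semaphorin with thrombospondin repeats, had 681.6, 579.9 and 667.3 in NT3 ovaries, against 730.0, 426.1 and 716.0 in control ovaries. Its lowest value was control replicate 2, and the log2 fold change was 0.08 ± 0.20 with that array and -0.17 without it. Sema6a, a transmembrane ligand of plexins A2 and A4, had 368.7, 481.3 and 358.5 in NT3 ovaries, against 373.6, 369.7 and 306.8 in control ovaries (0.20 ± 0.15, unadjusted p 0.229). NT3 replicate 2 stood above all control values and the other two fell among them. The other tested semaphorins, Sema3e, Sema3f, Sema3g, Sema4a, Sema4b and Sema6c, had log2 fold changes between -0.11 and 0.05, with every pair of groups overlapping.

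All 10 plexins and neuropilins that the rule found were tested, 6 above 0 and 4 below 0 with a median of 0.067. Plxna3, known as a plexin that signals for class 3 semaphorins with neuropilin 2, had 86.9, 96.4 and 57.8 in NT3 ovaries, against 38.1, 60.2 and 60 in control ovaries. NT3 replicate 3 lay below 2 of the 3 controls, so the groups overlapped. The log2 fold change was 0.60 ± 0.28 (95% interval -0.03 to 1.24, unadjusted p 0.0586), the highest of the 39. It was 0.39 (unadjusted p 0.203) without control replicate 1 and 0.83 (unadjusted p 0.0203) without NT3 replicate 3. Its second probe set gave 70.1, 78.5 and 47.4 in NT3 ovaries, against 55.3, 55.1 and 54.7 in control ovaries, a log2 fold change of 0.22. On both probe sets NT3 replicates 1 and 2 were above every control and NT3 replicate 3 was not.

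Plxnb2, a receptor for class 4 semaphorins, had 864.6, 973.0 and 719.3 in NT3 ovaries, against 786.4, 1104.8 and 699.8 in control ovaries. The 2 groups followed the same order by replicate number, and the log2 fold change was -0.0023 ± 0.18. Plxna1, a co-receptor chain for class 3 semaphorins, had 271.7, 347.5 and 311.1 in NT3 ovaries, against 313.6, 409.1 and 333.7 in control ovaries (-0.18 ± 0.15, unadjusted p 0.257). Each NT3 value was below the control of its own number, while the groups overlapped. Plxnc1, the receptor of the membrane-anchored semaphorin 7A, had 315.6, 235.4 and 282.6 in NT3 ovaries, against 337.2, 302.9 and 307.9 in control ovaries (-0.19 ± 0.14, unadjusted p 0.204), again with 1 NT3 value inside the control range. Its second tested probe set had the opposite sign, with 178.1, 137.2 and 179.3 in NT3 ovaries, against 154.4, 145.7 and 137.0 in control ovaries (0.17). The mean of its probe sets gave -0.013 (limma, unadjusted p 0.933).

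Nrp1, the co-receptor of class 3 semaphorins and of VEGF, had 610.8, 516.8 and 594.4 in NT3 ovaries, against 573.3, 340.3 and 584.6 in control ovaries. Control replicate 2 alone stood low, and the log2 fold change of 0.24 ± 0.20 became -0.02 without it. On the second Nrp1 probe set the signals were 554.0, 436.5 and 678.2 in NT3 ovaries, against 395.6, 527.2 and 421.2 in control ovaries, a log2 fold change of 0.30. There control replicate 2 was the highest control, 0.37 above the other 2 on the log2 scale, where it was 0.77 below them on the first (-0.77). The 2 probe sets of one gene thus put the same RNA sample on opposite sides of its group. The remaining receptors, Nrp2, Plxna2, Plxna4, Plxnb1 and Plxnd1, had log2 fold changes between -0.07 and 0.26 with overlapping groups.

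**Figure D2:**
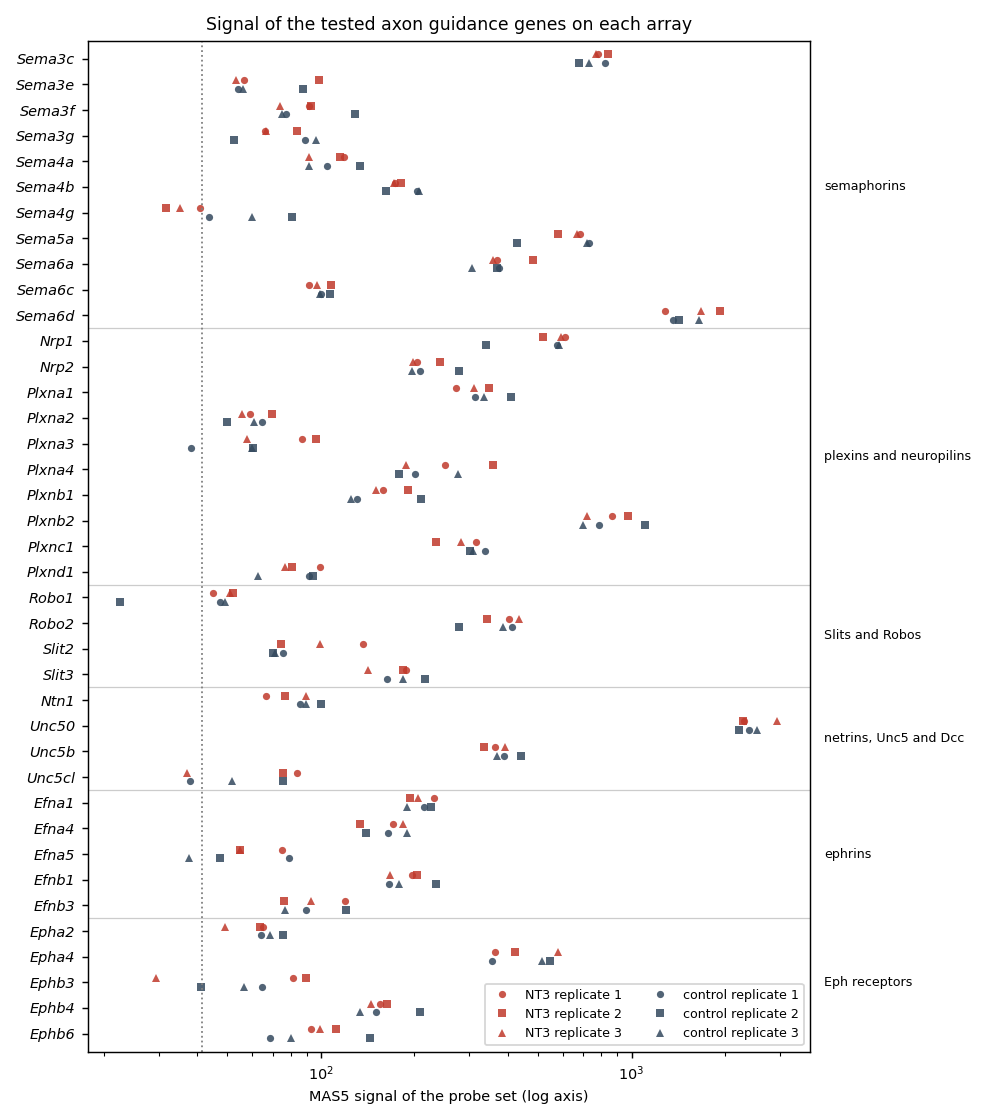
Deposited signal (log axis) of the 39 tested guidance genes on each of the 6 arrays, NT3 above control for each gene, with 1 point per array. The NT3 and control points overlap in every gene shown but Sema4g, whose highest NT3 value is 40.9 and lowest control value 43.6.

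Of the Slits and Robos, 4 of 6 were tested, 3 above 0 and 1 below it, with a median of 0.27. Slit2, a secreted ligand of Robo receptors, had 136.4, 74.2 and 99.1 in NT3 ovaries, against 75.3, 70.2 and 70.9 in control ovaries. The controls lay close together, 2 NT3 values stood above them and NT3 replicate 2 fell among them. The log2 fold change was 0.47 ± 0.24 (95% interval -0.07 to 1.01, unadjusted p 0.0781). It was 0.25 (unadjusted p 0.317) without NT3 replicate 1 and 0.69 (unadjusted p 0.0172) without NT3 replicate 2. Its second tested probe set had 102.2, 94.5 and 61.4 in NT3 ovaries, against 77.1, 94.4 and 59.6 in control ovaries, a log2 fold change of 0.15 with NT3 replicate 3 low in place of replicate 2. The 7 stromal marker genes listed, which include collagens, were all above 0 (median 0.14, 0 with an unadjusted p under 0.05), and their summed signal ran from 19785 to 22297 in NT3 ovaries and from 18806 to 19242 in control ovaries. Without control replicate 2, Dcn was at -0.0042, Lum at 0.11, Tcf21 at 0.064, Pdgfra at 0.094 and Nr2f2 at 0.052, each lower than with it. Col1a1 was then at 0.34 and Col1a2 at 0.29, each higher than with it. The part of these markers in the Slit2 values was not tested.

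Slit3, another secreted Robo ligand, had 187.6, 183.4 and 141.3 in NT3 ovaries, against 162.9, 215.9 and 183.5 in control ovaries (-0.14 ± 0.17). Robo2, a Slit receptor, had 403.4, 341.7 and 433.8 in NT3 ovaries, against 412.8, 277.4 and 385.5 in control ovaries (0.15 ± 0.17). Both replicates numbered 2 were low in Robo2, and without control replicate 2 its fold change was -0.03. Robo1, the other Slit receptor tested, had 45.0, 52.1 and 50.9 in NT3 ovaries, against 47.3, 22.6 and 49.0 in control ovaries (0.40 ± 0.33). The difference sat in control replicate 2, since the fold change without it was 0.03. The positive median of this family therefore included 2 receptors that were near 0 without that array.

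Among netrins, Unc5 receptors and Dcc, 4 of 9 symbols were tested, and 2 of these carry the prefix without being netrin receptors. Unc50 encodes a Golgi protein named after a worm gene, and Unc5cl encodes a death-domain protein related to the Unc5 receptors in sequence. Ntn1, the secreted netrin 1, had 66.5, 76.3 and 89.7 in NT3 ovaries, against 85.9, 99.9 and 89.6 in control ovaries (-0.25 ± 0.19, unadjusted p 0.22). NT3 replicates 1 and 2 lay below all controls, and NT3 replicate 3 lay inside the control range. Unc5b, a netrin receptor known from endothelium, had 362.4, 334.1 and 392.4 in NT3 ovaries, against 389.4, 439.0 and 368.7 in control ovaries (-0.14 ± 0.12, unadjusted p 0.301). Dcc, the attractive netrin receptor, had signals of 12.2, 4.6 and 13.6 in NT3 ovaries, against 23.7, 10.7 and 11.0 in control ovaries, under the filter on every array.

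Unc50 had 2308.7, 2282.2 and 2943.3 in NT3 ovaries, against 2389.4, 2223.2 and 2532.3 in control ovaries (0.07 ± 0.12). Unc5cl had 83.5, 75.5 and 36.9 in NT3 ovaries, against 38.0, 75.6 and 51.7 in control ovaries (0.22 ± 0.37). The groups overlapped in both, and the spread of Unc5cl, low on NT3 replicate 3 and control replicate 1, was the wider. Beside Unc5b, 8 of 9 tested endothelial marker genes were below 0 and 1 above (median -0.09, 0 with an unadjusted p under 0.05). The summed signal of the list, which also holds the untested Flt1, ran from 2436 to 2669 in NT3 ovaries and from 2479 to 2717 in control ovaries. The part of these markers in the Unc5b values was not tested.

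All 5 ephrins that the rule found were tested, 2 above 0 and 3 below it (median -0.00082). Efna1, a GPI-anchored ligand of EphA receptors, had 231.4, 193.0 and 204.9 in NT3 ovaries, against 214.3, 226.2 and 189.1 in control ovaries (-0.00082 ± 0.14). Efnb1, a transmembrane ligand of EphB receptors, had 196.0, 204.3 and 167.4 in NT3 ovaries, against 165.0, 233.9 and 178.2 in control ovaries (-0.01 ± 0.17). Efna4, another GPI-anchored ligand, had 170.8, 134.0 and 184.2 in NT3 ovaries, against 164.1, 139.9 and 189.6 in control ovaries (-0.02 ± 0.18). In Efna4 each NT3 array lay close to the control array of its own number. Efna5, ephrin A5, had 75.1, 54.7 and 55.0 in NT3 ovaries, against 79.1, 47.2 and 37.6 in control ovaries (0.23 ± 0.30, unadjusted p 0.471), and Efnb3 had a log2 fold change of 0.01 ± 0.24.

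Of the Eph receptors 5 of 12 were tested, 2 above 0 and 3 below it (median -0.05). Epha4, a receptor that binds both classes of ephrin, had 364.2, 421.8 and 581.7 in NT3 ovaries, against 354.1, 544.8 and 514.7 in control ovaries (-0.05 ± 0.21). Ephb4, known as the receptor of venous endothelium, had 154.6, 163.5 and 144.7 in NT3 ovaries, against 150.9, 208.2 and 133.7 in control ovaries (-0.07 ± 0.19). Replicate 1 was the lowest of its group in both groups for Epha4, and replicate 2 the highest in both for Ephb4. On the further tested probe sets of Epha4 the lowest control was replicate 2, and the log2 fold changes had the opposite sign (0.12 and 0.09). Epha2, a receptor of ephrin A1 known from epithelia, had 65.0, 63.4 and 49.0 in NT3 ovaries, against 64.2, 75.7 and 68.5 in control ovaries (-0.24 ± 0.21, unadjusted p 0.279).

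Ephb6, an Eph receptor whose kinase is inactive, had 93.1, 111.7 and 99.0 in NT3 ovaries, against 68.7, 143.7 and 80.2 in control ovaries. The NT3 values lay between the high control replicate 2 and the other controls, which gave a log2 fold change of 0.13 ± 0.27 over the 6 arrays. Dropping control replicate 2 gave 0.44 (unadjusted p 0.0388). Ephb3, a receptor of B-class ephrins, had 81.1, 89.5 and 29.5 in NT3 ovaries, against 64.8, 41.1 and 56.3 in control ovaries (0.17 ± 0.41). Its low NT3 replicate 3 gave it the widest error of the list, and without that array the log2 fold change was 0.68 (unadjusted p 0.0374).

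The 20 genes under the filter were Dcc, Epha3, Epha5, Epha6, Epha7, Epha8, Epha10, Ephb1, Ntn5, Ntng1, Robo3, Sema3a, Sema3b, Sema3d, Sema4d, Sema4f, Sema6b, Slit1, Unc5a and Unc5c. Their signals ran from 0.7 to 53.2 over the 6 arrays. Sema6b was the one closest under the filter, with 53.2, 49.5 and 41.8 in NT3 ovaries, against 27.6, 32.9 and 40.2 in control ovaries. Its groups did not overlap, and neither did those of Epha6, an ephrin A receptor with 3.7, 11.4 and 16.9 in NT3 ovaries, against 26.6, 26.3 and 17.2 in control ovaries. Both were too low to be tested. With no filter, groups did not overlap for 3 of the 59 guidance genes, beside 2222 of 31042 probe sets. Sema3a and Sema3d, 2 secreted class 3 ligands, are neighbours in the RefSeq gene order of rat chromosome 4, the 1 such pair among the 59, and both were under the filter. Most Eph receptors that the rule found, 7 of 12, were in this set, while every ephrin, plexin and neuropilin that it found passed the filter. Family members without a symbol of their own in the annotation were not looked at.

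One control array stood apart on quality measures. Control replicate 2 had a beta-actin 3′ to 5′ ratio of 6.83, against 2.42 to 2.91 on the other arrays, and a Gapdh ratio of 1.70, against 1.09 to 1.25; a higher ratio is known from degraded RNA or shorter labelled cRNA. On that array 973 of 10600 tested genes (9.18%) were over 1.5-fold away from their average on the 5 remaining arrays, against 2.09% to 3.09% on each of the others. Of the 39 guidance genes 7 (17.9%) did so, Sema4g, Ephb6 and Sema3f on the high side and Robo1, Nrp1, Sema5a and Sema3g on the low side. On the other arrays 1 to 5 guidance genes did so. Without control replicate 2, 3 of the 39 guidance genes had an unadjusted p under 0.05 (limma), namely Ephb6, Plxna3 and Plxnb1, all above 0. Sema4g was not among them, and 0 passed after adjustment. Over all tested probe sets, 656 of 18625 had an unadjusted p under 0.05 without that array, against 240 with it. The count thus rose over all probe sets too, and the 3 genes are not support for a shared rise with NT3. Plxnb1 had a log2 fold change of 0.37 without that array and 0.14 with it.

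**Figure D3:**
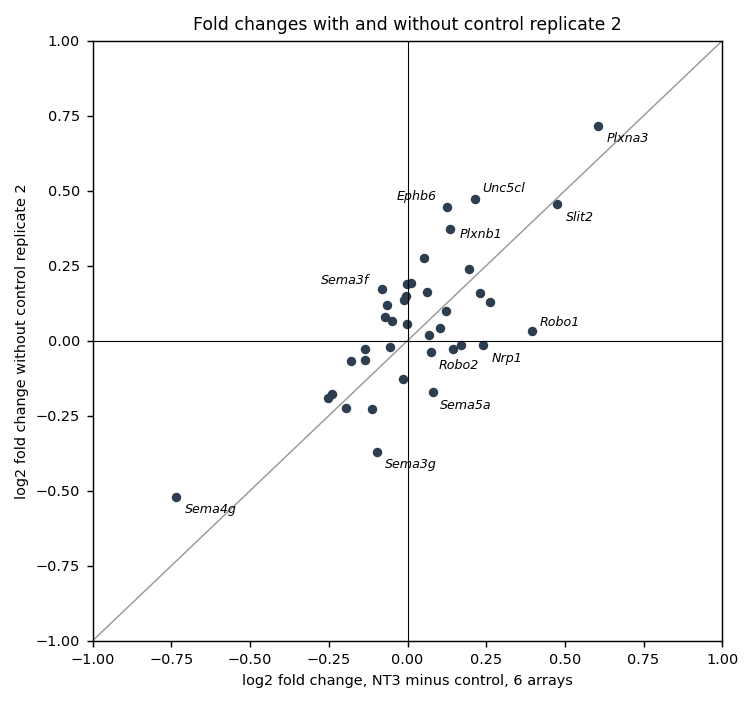
Log2 fold change (NT3 minus control) of the 39 tested guidance genes with all 6 arrays (x axis) against the same value without control replicate 2 (y axis), 1 point per gene. Robo1, Nrp1 and Robo2 lie near 0 on the y axis, and Ephb6 moves up to 0.44.

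The deviation of control replicate 2 was shared by some probe sets of a gene and not by others. For 15 guidance genes there were 19 further tested probe sets, and 7 of the 19 deviated from the other controls on that array in the same direction as the probe set used. For the NT3 fold change itself 12 of the 19 had the same sign as the probe set used and 7 the opposite sign. Robo2 had 1 further probe set above the other controls on that array (0.48) and 1 below (-0.85). Sema5a had a further probe set at -0.19 where the one used was at -0.76, and Sema3f had 0.60 beside 0.75. Probe sets of one gene can lie in different stretches or transcripts, and which of them differ here was not tested.

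**Figure D4:**
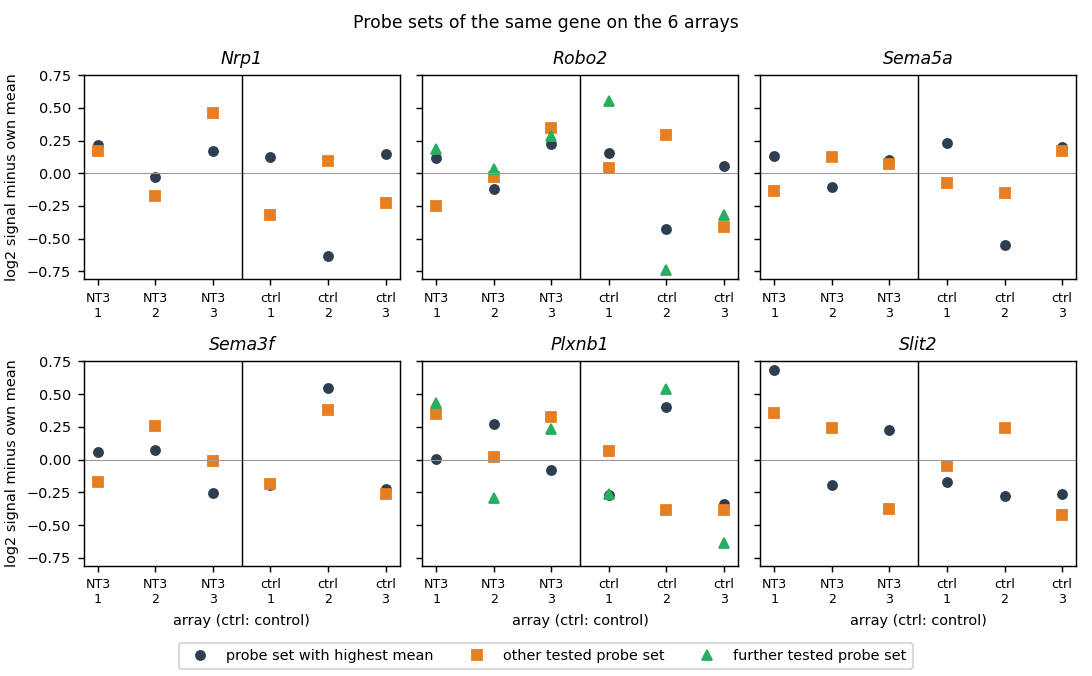
Log2 signal of each tested probe set minus its own mean over the 6 arrays (y axis) for 6 guidance genes with more than 1 tested probe set, arrays on the x axis with NT3 left of control (ctrl). In Nrp1 the 2 probe sets lie on opposite sides of 0 on control replicate 2, and in Sema3f both lie above it.

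The arrays numbered 2 were often at the same end of both groups. Replicate 2 was the highest of its group in both NT3 and control for 11 guidance genes, among them Plxnb2, Plxna1, Efnb1 and Ephb6, and the lowest in both for 7, among them Nrp1, Robo2, Sema5a and Slit2. That makes 18 of 39 (46.2%), beside 37.2% of all tested genes. Replicate 1 was highest or lowest in both groups for 9 guidance genes (23.1%, 25.2% of all tested genes) and replicate 3 for 10 (25.6%, 27.4%). With the replicate number as a block, 1 guidance gene, again Sema4g, had an unadjusted p under 0.05, beside 2.03% of tested genes.

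**Figure D5:**
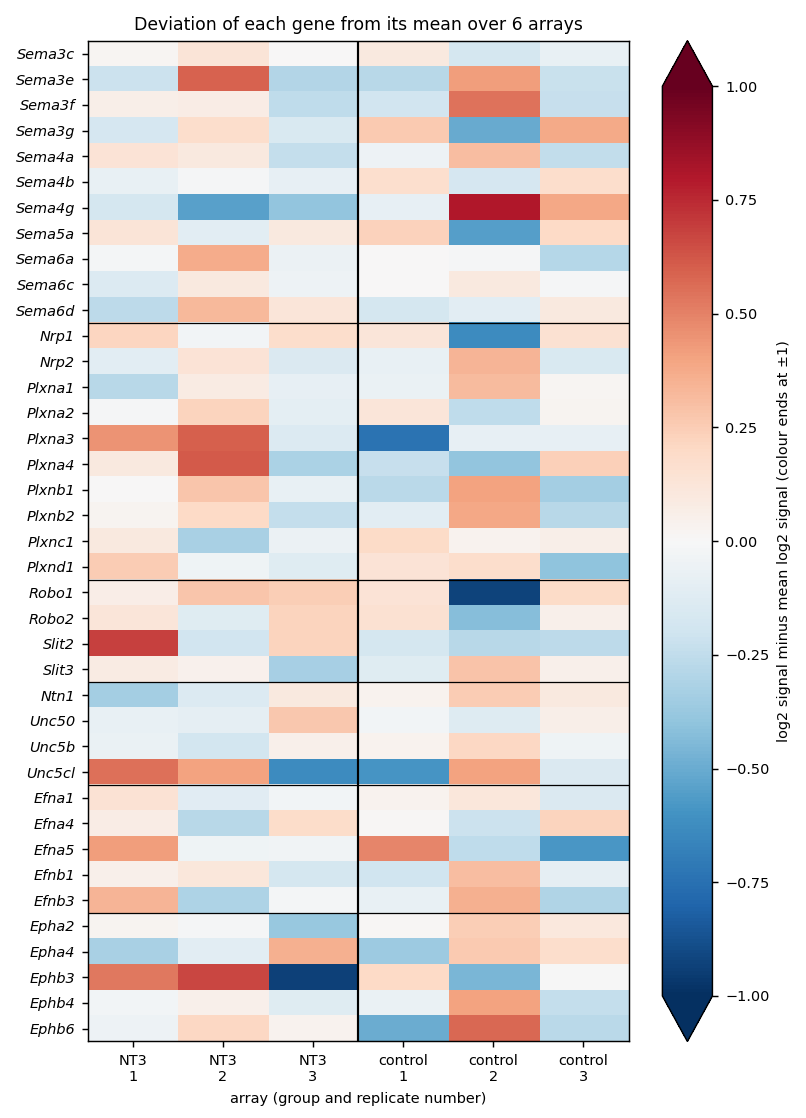
Log2 signal of each of the 39 tested guidance genes minus its mean over the 6 arrays, as a colour scale, with genes down the y axis by family and arrays on the x axis, NT3 left of control. Control replicate 2 holds many of the strongest colours, with Sema4g and Ephb6 high and Robo1 and Nrp1 low.

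The intracellular and co-receptor partners of these families were taken from a list of 100 genes that includes collapsin response mediators, kinases and the calcineurin and NFAT genes. Of these 92 were on the array and 74 tested, 42 above 0 and 32 below it with a median of 0.018. After adjustment 0 passed, and 2 had an unadjusted p under 0.05, beside 1.17% of all tested genes. Tiam1, a Rac exchange factor that binds ephrin and Eph proteins, had 115.2, 126.3 and 106.9 in NT3 ovaries, against 80.8, 88.6 and 84.5 in control ovaries (0.45 ± 0.17, unadjusted p 0.0229, adjusted p 1.00). Its groups did not overlap, as in 5.74% of all tested genes, and without control replicate 2 the log2 fold change was 0.49. In the same list the groups of Chn1, Dock1 and Nck2 (NT3 above control) and of Arhgef11 and Rock2 (NT3 below) did not overlap either.

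Nfatc4, a calcineurin-regulated transcription factor that in mice is needed, with related NFAT genes, for axon outgrowth to neurotrophins and netrins, had 104.4, 112.3 and 156.8 in NT3 ovaries, against 165.2, 229.9 and 154.9 in control ovaries (-0.56 ± 0.22, unadjusted p 0.0299, adjusted p 1.00). NT3 replicate 3 lay inside the control range. Next by p among the genes above 0 were Chn1, a Rac GTPase-activating protein that acts downstream of EphA4 in mice (0.40 ± 0.20), and Dock1, a Rac exchange factor downstream of Dcc (0.20 ± 0.11). Among those below 0 they were Ppp3cc, a catalytic subunit of calcineurin (-0.26 ± 0.17), and Pak1, a Rac effector kinase (-0.17 ± 0.11).

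Markers of the cells that could carry these genes were checked. The summed signal of 7 oocyte genes ran from 9941 to 12491 in NT3 ovaries and from 11621 to 12402 in control ovaries, and that of 8 granulosa genes from 6724 to 7282 in NT3 ovaries and from 6639 to 6970 in control ovaries. The ovarian label thus had its defining markers in every sample. The neuronal list summed to 4035 to 5315 in NT3 ovaries and 4685 to 6139 in control ovaries, but Snap25, Stmn2, Tubb3, Nefl and Dbh were under the filter. Most of that sum came from Uchl1 (means of 2474 in NT3 and 2700 in control ovaries) and Prph (1908 and 2266). The Schwann cell list summed to 1293 to 1426 in NT3 ovaries and 1283 to 1422 in control ovaries, with Sox10 and Erbb3 under the filter. Most of it came from Pmp22 (means of 1086 in NT3 and 1041 in control ovaries). These sums thus follow few genes. In each of these 4 lists 0 genes had an unadjusted p under 0.05, and their part in the guidance genes' values was not tested.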

How the data were processed

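RNA from 3 NT3-treated and 3 control samples of cultured rat ovaries was hybridised to Affymetrix 1-colour arrays after biotin labelling, per the labels' protocols. The deposited table holds linear-scale intensities, 1 for each probe set on each array, which the authors made with MAS5 per the submitters' processing notes (version: not given in the sources used here). With the top and bottom 2% of signals removed, all arrays averaged 210.1, so they shared 1 scale and a change in total RNA would not appear. Sample titles gave the groups and replicate numbers and call the replicates biological; nothing says whether they came from separate litters, so p-values measure the spread between these samples.

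After 57 control probe sets were removed, 31042 remained. Signals under 0.1 were raised to that floor and taken to log2. Probe sets under the 40th percentile of mean log2 signal (5.37) were left out, which kept 18625 and stands in for detection calls, which were not used here. NT3 minus control was fitted with limma 3.58.1 in R 4.3.3 (lmFit, eBayes with an intensity trend, 2-sided, Benjamini-Hochberg adjustment over all tested probe sets), and the code was tested on simulated data. Depth does not apply to arrays, and their number limits the precision. Names came from the array annotation, in which 20826 probe sets had 1 symbol, 436 several and 9780 none; all 59 guidance genes were in the RefSeq table by Entrez identifier and 0 symbols changed.

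Equal replicate numbers were treated as a possible pairing, and only the alternative fit with the replicate block used it. The main fit, with its p-values, errors and intervals, was unpaired. Deviations from the group means correlated at 0.230, 0.247 and 0.222 over probe sets for numbers 1, 2 and 3 (0.153, 0.136 and 0.111 over the 39 guidance genes). Unequal numbers gave -0.246 to 0.029 over probe sets and -0.247 to 0.106 over the guidance genes. Deviations sum to 0 within each group, which ties these values together. The possible pairing rests on the data and not on the labels.

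The members, gene lists and rules were chosen with earlier results of these data known. Values on every array are given, per family, for the 3 tested genes with the highest mean signal and the 3 with the lowest p, 27 in all; the 3 partner genes per direction with the lowest p are named. Values of Dcc, Epha6 and Sema6b were added after they were seen. The alternatives were the replicate block, quantile normalization, median centring, array weights, a fit without the variance trend, no filter or one at the 60th percentile, 16 added to each signal, the mean of a gene's probe sets, each array left out, and both arrays numbered 2 left out. A version without Unc50 and Unc5cl was added after the data were seen.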

Additional observations from a re-analysis of the deposited data

How the results depend on the processing

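No probe set passed the adjusted threshold in limma under any of 16 alternatives, and no guidance gene under those or without Unc50 and Unc5cl. With the replicate block the number of guidance genes with an unadjusted p under 0.05 was 1, as without it, and the pairing changed no adjusted call; over all probe sets the unadjusted number was 401 with the block and 240 without it. Leaving out control replicate 2 gave 656 such probe sets and array weights 585. For the guidance genes, the unadjusted number was 0 with the filter at the 60th percentile, where 9 genes were above 0, 2 without a variance trend (Plxna3, Sema4g) and 2 with array weights (Plxna3, Slit2; Sema4g had an unadjusted p of 0.0552), 1 without both arrays numbered 2 (Slit2), and 0 to 3 with single arrays left out: 3 without control replicate 2 (Ephb6, Plxna3, Plxnb1), 2 without NT3 replicate 3 (Ephb3, Plxna3), 1 without NT3 replicate 2 (Slit2), and 0 without control replicate 3. The number of guidance genes with groups that did not overlap was 2 after quantile normalization, beside 1102 of 18625 probe sets. It was 3 after median centring (1039 of 18625) and 3 without a filter (2222 of 31042). With the filter at the 60th percentile it was 0 (643 of 12417). Without both arrays numbered 2 it was 12 (5333 of 18625), and with single arrays left out 1 to 6 (2250 to 3438 of 18625). Fewer arrays or genes change such counts by construction, in the guidance genes and over all probe sets alike.

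Of the 27 genes with values on every array, 11 kept the sign of their log2 fold change in each alternative that gave them a value (Epha2, Ntn1, Plxna1, Plxna3, Plxnc1, Sema3c, Sema4g, Sema6a, Slit2, Slit3 and Unc5b). Epha2, Ntn1, Plxna3, Sema4g and Slit2 had no value with the filter at the 60th percentile, which left them out. Some of the 11 came close to 0, with Slit3 at -0.0054 without NT3 replicate 3, and Sema3c at 0.0031 and Unc5b at -0.0069 without both arrays numbered 2. Plxnc1 was at -0.013 with the mean of all probe sets. The other 16 turned in at least 1, and the cause was not tested. With quantile normalization Efna1 was 0.010 and Efnb1 0.0026, and with median centring Efna1 was 0.0085 and Plxnb2 0.0070. With array weights Efna1 was 0.065, Efnb1 0.12, Ephb4 0.074, Plxnb2 0.16 and Sema5a -0.099, and with the mean of all probe sets Epha4 was 0.054. Without both arrays numbered 2, Efna1 was 0.11, Efna4 0.0080, Efnb1 0.079, Epha4 0.11, Ephb3 -0.30, Ephb4 0.075, Plxnb2 0.088, Robo1 -0.0085, Sema5a -0.10 and Sema6d -0.032. With single arrays left out the log2 fold changes ran from -0.074 to 0.057 for Efna1, -0.13 to 0.12 for Efna4, -0.0046 to 0.53 for Efna5, -0.11 to 0.14 for Efnb1, -0.24 to 0.097 for Epha4, -0.12 to 0.68 for Ephb3, -0.20 to 0.12 for Ephb4, -0.088 to 0.44 for Ephb6, -0.016 to 0.37 for Nrp1, -0.14 to 0.19 for Plxnb2, -0.029 to 0.26 for Robo2, -0.17 to 0.22 for Sema5a, -0.0085 to 0.29 for Sema6d, -0.051 to 0.13 for Unc50 and -0.024 to 0.58 for Unc5cl.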
